A study of Rattus norvegicus with 56 samples.

Results

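miR-451 and miR-144 are the microRNAs of 1 short cluster that red blood cells and their precursors express at very high levels. The rows chosen were rno-miR-451-5p and rno-miR-144-5p, 2 of the 367 miRNAs listed, and they were followed in all 56 hippocampal libraries. Small RNA was sequenced from the hippocampus of 28 rats with traumatic brain injury (TBI), made by fluid percussion injury (FPI), and 28 rats with sham surgery. Tissue was taken at 7 intervals from 24 h to 1 y after surgery (24 h, 2 w, then 1 m, 2 m and 3 m, then 6 m and finally 1 y), 4 of each kind at each interval. The labels name no treatment of either group beyond injury or sham surgery, and strain, sex, age and whether blood was washed out of the brain before dissection are not given in the sources used here. The questions were whether the levels of these miRNAs, which red cells left in the tissue or a haemorrhage could carry, differed between TBI and sham rats, and how closely both members of the cluster moved together.

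The cluster is switched on by the erythroid factor GATA1, and the primary transcript is cut into separate hairpins. miR-144 is made in the usual way, with Drosha and then Dicer. miR-451 is the textbook exception: its hairpin is too short for Dicer and is cut by Argonaute 2 and then trimmed, so that the mature strand runs into the loop. Mature red cells have no nucleus but keep large amounts of miR-451, which is therefore a common gauge of red cells in plasma and tissue.

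Mature sequences from RefSeq are shown because the seed sets each of these miRNAs apart, with the seed (bases 2 to 8) in capitals.
rno-miR-451-5p: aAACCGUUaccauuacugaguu
rno-miR-144-5p: gGAUAUCAucauauacuguaagu
The seeds AACCGUU and GAUAUCA differ from each other, and 0 other mature miRNAs among the 693 of the reference share either of them. The mature strands are 22 and 23 bases long, so no length correction was made when the read levels of the members were compared.

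The hairpins are shown to give the arrangement of the cluster, with the mature strand in capitals.
Mir144: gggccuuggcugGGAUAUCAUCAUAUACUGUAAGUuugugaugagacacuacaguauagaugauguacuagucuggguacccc
Mir451a: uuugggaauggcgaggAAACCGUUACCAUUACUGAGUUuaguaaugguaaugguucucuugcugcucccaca
On assembly GRCr8, Mir144 lies at chr10:63459397-63459479 and Mir451a at chr10:63459569-63459640, both on the plus strand, with 89 bases between them. The mature strand of miR-144-5p is bases 13 to 35 of its hairpin (chr10:63459409-63459431), and that of miR-451-5p is bases 17 to 38 (chr10:63459585-63459606). The hairpins overlapped 0 other annotated genes. By coordinate, the nearest annotated genes were Flot2, 13585 bases before the cluster, and Eral1, 133 bases after it, whichever strand they are read from.

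Library depth ranged from 2083604 to 12468979 counts in 55 libraries (median over all 56, 5332930). The remaining library, rat X747 of the TBI group at 2 m, held only 69628 counts and gave 7 reads of miR-451-5p and 0 of miR-144-5p. A count of 0 in that library allows up to 34.4 CPM (read counts scaled to a common library total), so the level of miR-144-5p there was not detectable at this depth. Results that rest on rat X747 are given with and without it. The dissected tissue carried neuronal miRNAs at high level: 8 of them summed to between 150541 and 357960 CPM, and miR-9a-5p ranked 1 of 367.

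Both members were found in the hippocampus of sham and TBI rats alike, at a moderate and a low level. miR-451-5p averaged 98.1 CPM and ranked 126 of the 367 miRNAs, with a median of 86.0 CPM and a range from 29.4 CPM (TBI at 1 y, rat X82) to 297 CPM (sham at 1 m, rat X795). miR-144-5p averaged 11.8 CPM and ranked 182, with a median of 10.1 CPM. Its highest level was 42.8 CPM, in the same rat X795. Leaving out rat X747, every library held at least 129 reads of miR-451-5p and 17 of miR-144-5p. The highest TBI rat for both was tube59 at 6 m, with 243 CPM of miR-451-5p and 42.5 CPM of miR-144-5p. In bulk tissue, fewer cells of a type and less of an RNA per cell cannot be told apart, and this holds for every level below.

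**Figure D1:**
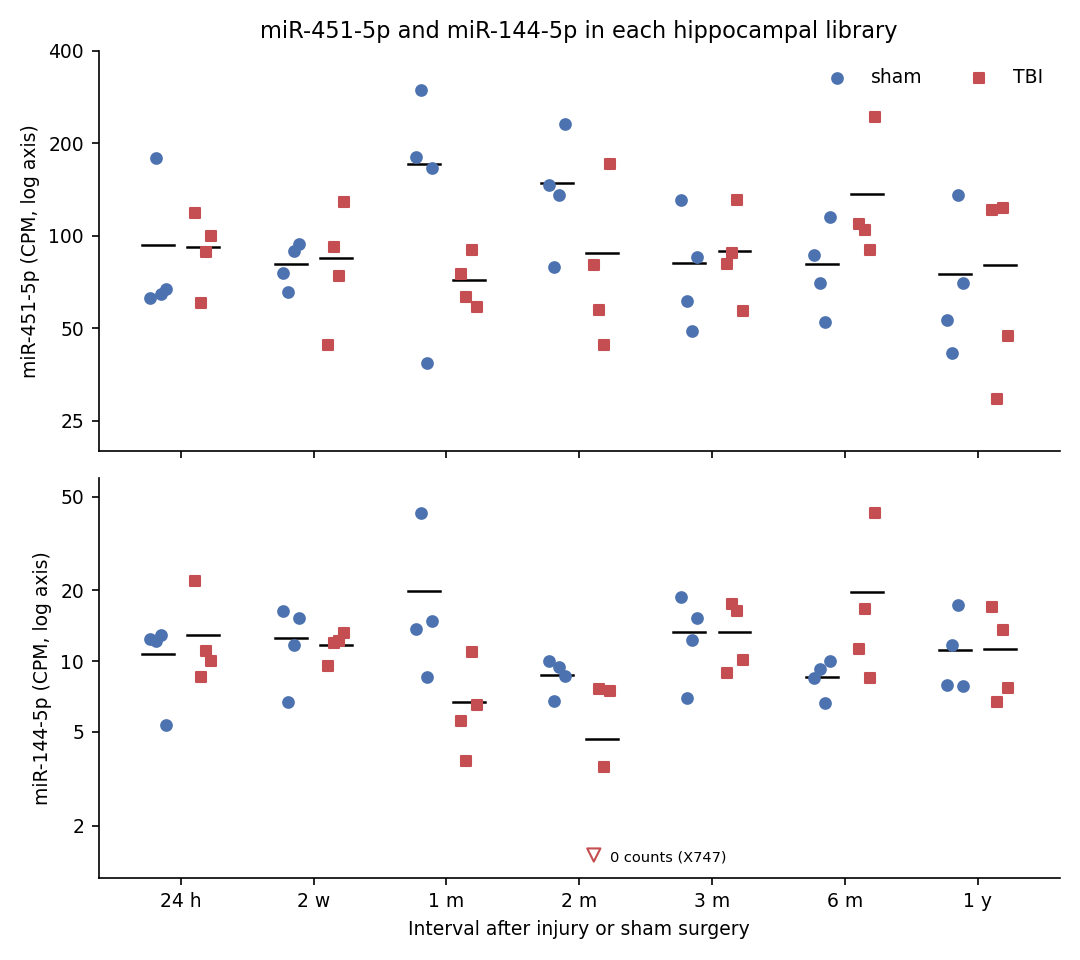
Level of miR-451-5p (upper panel) and miR-144-5p (lower panel) in each library, in CPM on log axes, by interval; circles are sham rats, squares TBI rats, bars the mean of 4 rats, and the open triangle rat X747 with 0 counts of miR-144-5p. The groups overlap at every interval, and the sham rats at 1 m spread from 38.5 to 297 CPM of miR-451-5p.

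At 24 h, the interval closest to the injury, neither member differed in level between TBI and sham rats beyond the spread. In the sham rats miR-451-5p was at 62.7, 179, 64.4 and 67.3 CPM (mean 93.3 ± 57.1, SD, n = 4). In the TBI rats it was at 118, 60.4, 88.2 and 100.01 CPM (91.7 ± 24.3). The groups overlapped, with the highest level of all in a sham animal, rat X599. miR-144-5p was at 12.4, 12.2, 12.9 and 5.38 CPM in sham rats (10.7 ± 3.58) and at 22.0, 8.54, 10.99 and 10.04 CPM in TBI rats (12.9 ± 6.15). Here too the groups overlapped, and only rat X453 stood above all sham rats. The log2 fold change of TBI against sham by edgeR's quasi-likelihood test was -0.03 for miR-451-5p (SE 0.35, adjusted p = 0.997) and 0.24 for miR-144-5p (SE 0.35, adjusted p = 0.981). Without rat X599 the change of miR-451-5p was 0.46 (adjusted p = 0.615). Of the 233 miRNAs tested at 24 h, 1.72% were called at an adjusted p under 0.05, and neither member was among them.

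At 2 w the levels were close together. miR-451-5p was at 75.7, 65.8, 89.4 and 93.8 CPM in sham rats and at 44.0, 92.0, 73.9 and 129 CPM in TBI rats. miR-144-5p was at 16.3, 6.72, 11.7 and 15.3 CPM in sham rats and at 9.55, 11.9, 12.2 and 13.2 CPM in TBI rats. For miR-451-5p 1 TBI rat was below and 1 above the sham range, with the other two inside it, whereas all TBI levels of miR-144-5p lay inside it. The log2 fold changes were 0.08 (SE 0.28, adjusted p = 0.971) and -0.09 (SE 0.26, adjusted p = 0.957) by edgeR's quasi-likelihood test, which called 0% of 227 miRNAs.

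The largest fold changes of both members in the edgeR fits were at 1 m, where the levels were lower in TBI rats, but neither passed the test after adjustment. By mean log2 CPM, the difference of miR-144-5p was -1.58 at 2 m and -1.36 at 1 m. The 2 m value rests on rat X747, whose 0 counts lay at -3.15 from its group mean, so the intervals are not ranked by it. The edgeR change at 2 m is given below with and without this rat. miR-451-5p was at 180, 297, 38.5 and 166 CPM in sham rats X783, X795, X784 and X794 (mean 171 ± 106, SD, n = 4). In TBI rats X756, X769, X757 and X768 it was at 75.02, 63.1, 90.0 and 58.5 CPM (71.7 ± 14.1). Thus 3 of the 4 sham rats were above all TBI rats, and the fourth, X784, was below them all. miR-144-5p was at 13.7, 42.8, 8.53 and 14.7 CPM in the same sham rats (19.9 ± 15.5) and at 5.56, 3.76, 10.98 and 6.52 CPM in the TBI rats (6.71 ± 3.07). For this member 3 sham rats were above all TBI rats and 3 TBI rats were below all sham rats. The sham mean was 2.38-fold the TBI mean for miR-451-5p and 2.97-fold for miR-144-5p.

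The log2 fold change at 1 m was -1.21 for miR-451-5p (SE 0.43, adjusted p = 0.201 by edgeR's quasi-likelihood test, rank 16 of 240 by p). For miR-144-5p it was -1.51 (SE 0.46, adjusted p = 0.195 by the same test, rank 5 of 240). The test called 0.417% of the 240 miRNAs, 1 in number, while 42 had an unadjusted p under 0.05. The exact two-sided permutation test of mean log2 CPM gave p = 0.171 and p = 0.0571, where 4 rats against 4 cannot go below 0.0286. The call for miR-144-5p depended on the test: its adjusted p was 0.0473 in edgeR's likelihood ratio test, 0.0249 in DESeq2's Wald test, 0.0320 in DESeq2's likelihood ratio test and 0.0100 in a joint edgeR fit of all 56 libraries, where 37 miRNAs were called. Leaving out single rats at 1 m moved its adjusted p between 0.0996 and 0.443. For miR-451-5p the call turned on rat X784, the sham rat with the lowest level: without it the log2 fold change was -1.54 with an adjusted p of 0.00647 by edgeR's quasi-likelihood test. Without rat X795, the sham rat with the highest level, the changes were -0.85 and -0.87.

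At 2 m the levels again were lower on average in TBI rats. miR-451-5p was at 146, 79.3, 136 and 231 CPM in sham rats (148 ± 62.8) and at 80.3, 57.3, 44.1 and 171 CPM in TBI rats X747, X749, X748 and X750 (88.1 ± 57.1). miR-144-5p was at 10.1, 6.80, 9.47 and 8.63 CPM in sham rats (8.74 ± 1.41) and at 0, 7.58, 3.55 and 7.49 CPM in the TBI rats. The levels of both overlapped between the groups, with TBI rat X750 above 3 of the 4 sham rats for miR-451-5p. The log2 fold changes were -0.73 (SE 0.46, adjusted p = 0.749) and -0.54 (SE 0.32, adjusted p = 0.704) by edgeR's quasi-likelihood test, which called 0% of 236 miRNAs. Without the shallow library of rat X747 they were -0.71 and -0.52. Without rat X750 the change of miR-451-5p was -1.46 (adjusted p = 0.191).

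At 3 m the differences of both members were smaller than their standard errors. miR-451-5p was at 131, 61.4, 48.9 and 85.3 CPM in sham rats and at 80.9, 88.0, 131 and 57.0 CPM in TBI rats. miR-144-5p was at 18.7, 6.94, 12.4 and 15.2 CPM in sham rats and at 8.93, 17.5, 16.4 and 10.2 CPM in TBI rats. For both, the TBI levels lay within the range of the sham rats. The log2 fold changes were 0.15 (SE 0.32, adjusted p = 0.907) and 0.02 (SE 0.31, adjusted p = 0.983) by edgeR's quasi-likelihood test, which called 0% of 220 miRNAs.

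At 6 m the direction was the opposite of that at 1 m, again without passing the test after adjustment. miR-451-5p was at 86.7, 70.2, 52.5 and 115 CPM in sham rats (81.2 ± 26.6) and at 109, 105, 90.1 and 243 CPM in TBI rats tube57, tube60, tube58 and tube59 (137 ± 71.5). miR-144-5p was at 8.48, 9.25, 6.65 and 9.99 CPM in sham rats (8.59 ± 1.44) and at 11.2, 16.7, 8.49 and 42.5 CPM in the TBI rats (19.7 ± 15.5). The groups overlapped, with 3 TBI rats above all sham rats for miR-144-5p and only tube59 above them for miR-451-5p. The TBI mean was 1.69-fold the sham mean for miR-451-5p and 2.30-fold for miR-144-5p. The log2 fold changes were 0.75 (SE 0.32, adjusted p = 0.881) and 1.19 (SE 0.43, adjusted p = 0.746) by edgeR's quasi-likelihood test, ranks 9 and 5 of 224, and 0% of these miRNAs were called. The exact permutation p was 0.171 and 0.0857. Without tube59 the changes were 0.35 and 0.56.

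At 1 y the group means were close and the spread within groups was wide. miR-451-5p was at 53.0, 41.6, 136 and 69.9 CPM in sham rats and at 121, 29.4, 123 and 47.0 CPM in TBI rats. miR-144-5p was at 7.90, 11.7, 17.4 and 7.83 CPM in sham rats and at 17.0, 6.69, 13.6 and 7.72 CPM in TBI rats. Rats with a high level and rats with a low level were found on both sides. Each sham library at 1 y shares the S number in its title with a TBI library. The labels do not say what the number marks and do not name the sequencing run. A part of the run at 1 y was not tested and cannot be told apart from injury. The log2 fold changes were 0.08 (SE 0.51, adjusted p = 0.990) and -0.02 (SE 0.36, adjusted p = 0.990) by edgeR's quasi-likelihood test, which called 0% of 225 miRNAs. At the 5 intervals with 0 calls, the number of miRNAs with an unadjusted p under 0.05 was 21 (2 w), 17 (2 m), 12 (3 m), 11 (6 m) and 22 (1 y). The likelihood ratio test of edgeR called 8, 2, 0, 0 and 0 miRNAs there. The Wald test of DESeq2 called 7, 1, 1, 0 and 0, and its likelihood ratio test 6, 1, 1, 0 and 0, with neither member among the calls.

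**Figure D2:**
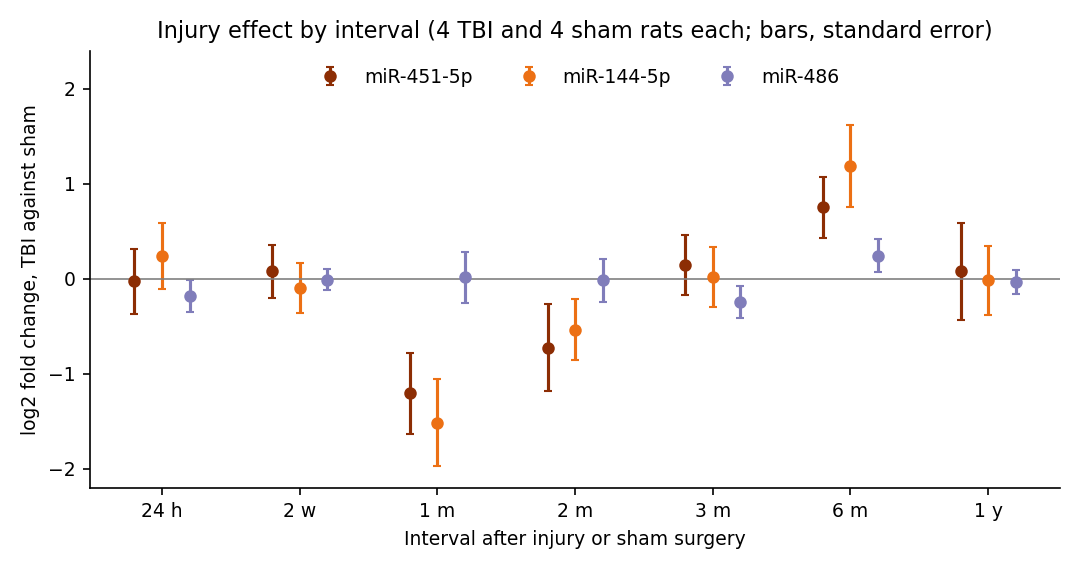
Log2 fold change of TBI against sham at each interval for miR-451-5p, miR-144-5p and miR-486 by edgeR, with bars of 1 standard error (4 TBI and 4 sham rats an interval). Both members of the cluster sit at -1.21 and -1.51 at 1 m and at 0.75 and 1.19 at 6 m, while miR-486 stays between -0.25 and 0.24.

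Over all 56 libraries, with interval as a term, neither member passed the test of injury. The log2 fold change was -0.13 for miR-451-5p (SE 0.19, adjusted p = 0.880) and -0.11 for miR-144-5p (SE 0.19, adjusted p = 0.894) by edgeR's quasi-likelihood test, which called 4.51% of 244 miRNAs. Leaving out the rats of 1 m turned both signs, to 0.05 and 0.14. Whether the injury effect differed between intervals was tested with 6 interaction terms, which called 2.87% of 244 miRNAs. miR-144-5p ranked 11 of 244 in that test (adjusted p = 0.0856 by edgeR's quasi-likelihood test) and miR-451-5p ranked 51 (adjusted p = 0.429). In the likelihood ratio tests of edgeR and DESeq2 the adjusted p of miR-144-5p was 0.0268 and 0.0273. Over 14 alternatives, leaving out intervals or rat X747 included, the adjusted p of its interaction test ran from 0.0268 to 0.593. This is a joint test over all 7 intervals, and the difference between 1 m and 6 m was not tested on its own.

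The sham rats give the level in animals without injury. From high to low, their mean miR-451-5p had the order 1 m (171 ± 106 CPM), 2 m (148 ± 62.8), 24 h (93.3 ± 57.1), 3 m (81.7 ± 36.3), 6 m (81.2 ± 26.6), 2 w (81.2 ± 12.8) and 1 y (75.1 ± 42.1). Neighbours in this order differed by less than the larger SD of the pair. For miR-144-5p the order was 1 m (19.9 ± 15.5 CPM), 3 m (13.3 ± 4.97), 2 w (12.5 ± 4.34), 1 y (11.2 ± 4.49), 24 h (10.7 ± 3.58), 2 m (8.74 ± 1.41) and 6 m (8.59 ± 1.44), again with neighbours closer than the larger SD. The highest mean of both was thus at 1 m, the interval of rat X795, which had the highest level of all rats in both members. The test of interval in the 28 sham libraries called 27.1% of 240 miRNAs, and neither member was among them (adjusted p = 0.131 for miR-451-5p and 0.126 for miR-144-5p, edgeR's quasi-likelihood test). Interval and age at dissection cannot be told apart in this comparison, and the labels do not name the sequencing run.

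Both members spread widely between rats of the same group. The within-group SD of log2 CPM was 0.70 for miR-451-5p, against 0.10 from counting error alone and a median of 0.30 over 244 miRNAs. For miR-144-5p it was 0.82, against 0.28 from counting error. Without rat X747 the SD was 0.71 for miR-451-5p and 0.60 for miR-144-5p, with 0.07 and 0.20 from counting error and a median of 0.28 over the same miRNAs. From the most to the least variable of 244 miRNAs, miR-451-5p ranked 33 in 56 libraries and 15 without rat X747, and miR-144-5p ranked 14 and 21. These SDs hold differences between rats and between library preparations alike, which cannot be told apart here. Within a group the highest level of miR-451-5p was between 1.42-fold (sham at 2 w) and 7.72-fold (sham at 1 m) the lowest.

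Both members of the cluster moved together from rat to rat. Taking each rat's deviation from the mean log2 CPM of its own group, Pearson's r was 0.48 in the 56 rats (p = 0.00358, adjusted p = 0.0215) and Spearman's rho was 0.56 (p = 0.00029, adjusted p = 0.00174), by a permutation test within groups, adjusted over 12 relations. With the 2 rats most distant from the middle of the miR-451-5p values left out, r was 0.45. Rat X747, with 0 reads of miR-144-5p, lowered the value: in the other 55 rats r was 0.68 and rho 0.65 (permutation p = 2e-05 for each). The same rat was highest in both members in 8 of the 14 groups and lowest in both in 8 of 14. On the same side of their group's mean in both were 36 of the 56 rats.

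**Figure D3:**
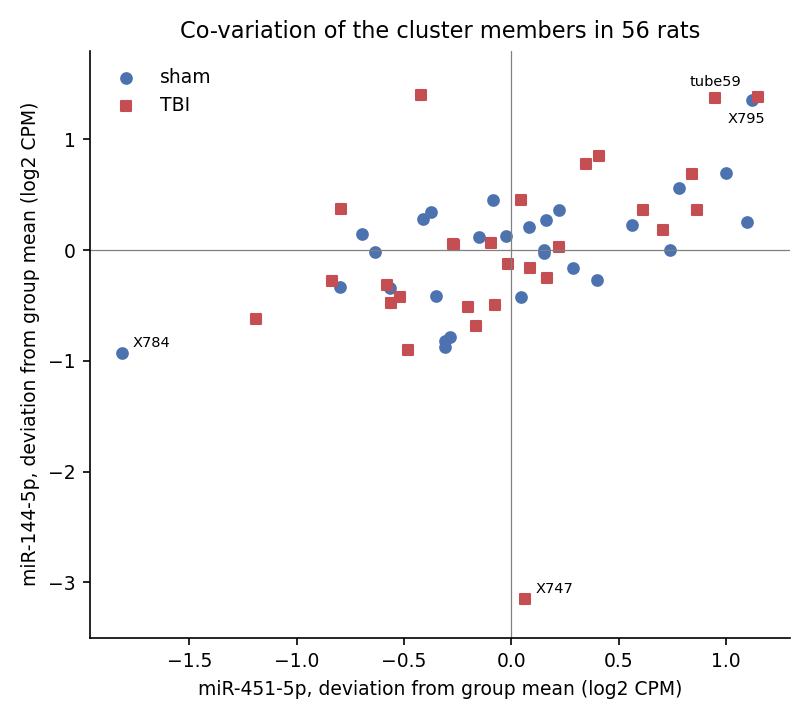
Deviation of miR-451-5p (horizontal axis) and miR-144-5p (vertical axis) from the mean of the rat's own group, in log2 CPM, for 28 sham rats (circles) and 28 TBI rats (squares). The points rise together (r = 0.48 in 56 rats, 0.68 without rat X747, which lies alone at the bottom), with X795 and tube59 at the upper right and X784 at the far left.

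The relation was present in sham and in TBI animals. In the 28 sham rats r was 0.64 (permutation p = 0.0104, adjusted p = 0.0417) and rho 0.52 (p = 0.0155, adjusted p = 0.0382), and r was 0.46 without the 2 farthest rats. In the 28 TBI rats r was 0.43 (permutation p = 0.0949, adjusted p = 0.163) and rho 0.54 (p = 0.0090, adjusted p = 0.0360). The TBI value of r depended on rat X747: in the other 27 TBI rats r was 0.73 and rho 0.73 (adjusted permutation p = 6e-05 and 0.001). Whether sham and TBI rats differed in r was not tested. Within single intervals (8 rats each), r was 0.42 (24 h), 0.51 (2 w), 0.77 (1 m), 0.11 (2 m), 0.67 (3 m), 0.87 (6 m) and 0.83 (1 y). All 7 values were positive, and none passed adjustment over the 7 intervals by the exact permutation test, the lowest adjusted p being 0.0608 at 6 m. The low value at 2 m is that of the interval with rat X747.

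The ratio of the members gives a comparison that does not depend on how libraries were scaled. It covers the 5p strands only, so it is not the proportion of all products of the 2 hairpins. In the 55 libraries with a read of miR-144-5p, there were between 3.54 (sham at 1 y, rat X77) and 26.8 (sham at 2 m, rat X776) reads of miR-451-5p for each read of miR-144-5p, with a median of 7.91. The within-group SD of the log2 ratio was 0.53, beside 0.22 from counting error alone. Variation from library preparation is not in that floor, so how far the proportion itself varied between rats was not tested. The mean log2 ratio differed between TBI and sham by between -0.26 (2 m) and 0.45 (1 m), and no interval passed the exact permutation test (p from 0.371 to 1.0, adjusted p = 1.0 at all 7). The mean log2 ratio was highest at 2 m in both groups (3.99 ± 0.52 in sham and 3.73 ± 0.66 in TBI rats), and this order of the intervals was not tested. The TBI mean at 2 m includes rat X747, whose log2 ratio of 3.91 rests on the 0.5 added to its 0 reads of miR-144-5p. Leaving out each rat of 2 m in turn moved the difference there between -0.51 and 0.019.

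**Figure D4:**
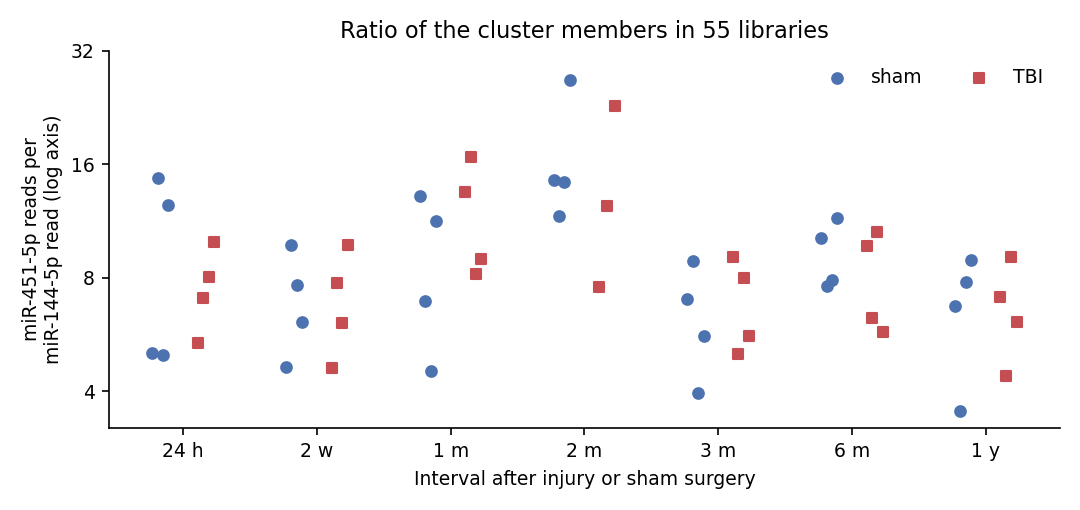
Reads of miR-451-5p for each read of miR-144-5p in the 55 libraries with a read of miR-144-5p, on a log axis, by interval, for sham rats (circles) and TBI rats (squares). The ratio runs from 3.54 to 26.8 with overlapping groups at every interval.

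The miRNA most like miR-451-5p over the 56 rats was miR-486, another miRNA abundant in red cells, which the table lists without an arm. Among 243 miRNAs its Spearman rho with miR-451-5p was 0.62, followed by miR-144-5p (0.56), miR-106b-5p (0.42), miR-124-5p (0.41) and miR-31a-5p (0.39), against a median of 0.00. For miR-144-5p the order was miR-451-5p (0.56), let-7f-5p (0.46), miR-3084b-5p and miR-3084c-5p (0.45 each) and miR-486 (0.39). Without rat X747, miR-144-5p came first for miR-451-5p (0.65) and miR-486 second for both members (0.61 and 0.50). These ranks are a description over libraries that share their scaling.

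**Figure D5:**
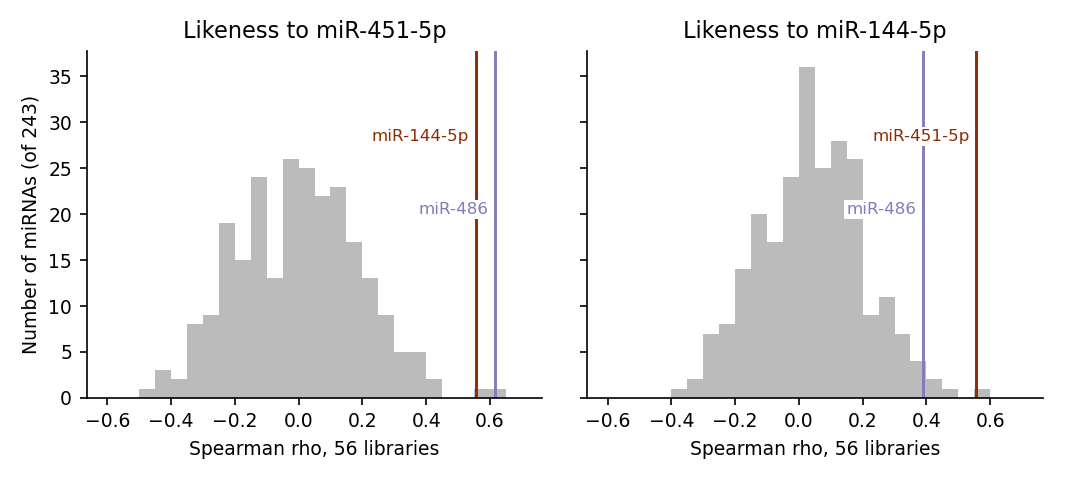
Number of miRNAs (of 243) by Spearman rho of their within-group deviations with those of miR-451-5p (left) and miR-144-5p (right) over 56 libraries. The other member of the cluster (0.56 in both panels) and miR-486 (0.62 and 0.39) are marked by vertical lines to the right of most miRNAs.

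In the tests of fixed relations, miR-451-5p went with miR-486 at r = 0.65 and rho = 0.62 (permutation p = 1e-05 for each, the smallest that 100000 resamples can give, adjusted p = 0.00012), and r was 0.63 without the 2 farthest rats. With miR-16-5p, which many cell types express, r was 0.24 (adjusted permutation p = 0.134). With miR-142-5p, a miRNA of white blood cells and microglia, r was 0.33 (adjusted p = 0.0793) and rho 0.35 (adjusted p = 0.0382) by the permutation test. The vessel wall miRNA miR-126a-5p gave r = 0.27 (adjusted permutation p = 0.134). For miR-223-5p of neutrophils and other myeloid cells, miR-122-5p of the liver and miR-204-5p of the choroid plexus r was 0.09, -0.04 and 0.11, with adjusted permutation p from 0.614 to 0.844. With total count, r of miR-451-5p was 0.04 (adjusted permutation p = 0.844). For miR-144-5p r with total count was 0.62 (adjusted permutation p = 0.211) and -0.02 without rat X747.

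miR-486 was lower and higher with miR-451-5p within groups, but its group means moved little with injury. Its level ranged from 147 to 338 CPM in sham rats and from 130 to 289 CPM in TBI rats, with medians of 176 and 178 CPM. At 1 m it was at 180, 338, 163 and 207 CPM in sham rats X783, X795, X784 and X794 and at 278, 236, 157 and 189 CPM in TBI rats X756, X769, X757 and X768. Rat X795 was thus the highest of its group in all 3 miRNAs. The log2 fold change of miR-486 was 0.01 at 1 m (SE 0.27, adjusted p = 0.970), 0.24 at 6 m (SE 0.18, adjusted p = 0.961) and between -0.25 and -0.01 at the other intervals by edgeR's quasi-likelihood test.

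The ratio of each member to miR-486 was compared after these values had been seen. At 1 m the log2 ratio of miR-451-5p to miR-486 differed by -0.92 between TBI and sham rats (means -1.57 ± 0.52 against -0.65 ± 0.97), and that of miR-144-5p differed by -1.37 (-5.06 ± 0.94 against -3.69 ± 0.53). The exact permutation test gave p = 0.143 and 0.0571. At 2 m the differences were -0.86 and -0.60 (exact permutation p = 0.0571 and 0.114), and without rat X747 -0.83 and -0.51. At 6 m they were 0.48 and 0.71 (exact permutation p = 0.0857 and 0.0571). After adjustment over these 14 comparisons the lowest value was 0.240. With 4 rats against 4 and 14 comparisons, these tests could hardly pass the threshold, so nothing is drawn from them about a shared or a separate response.

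The red blood cell list held 12 names, of which 10 were listed in the table, the members included. Between 7 and 9 of them were tested at each interval, and 0 were called at any interval by edgeR's quasi-likelihood test, beside 0% to 1.72% of all miRNAs. The median log2 fold change of the list was 0.18 at 24 h (all miRNAs, -0.02), 0.01 at 1 m (all miRNAs, 0.02), -0.21 at 2 m (all miRNAs, -0.03) and 0.23 at 6 m (all miRNAs, 0.00). At 24 h its values ran from -0.18 (miR-486) to 0.95 (miR-20b-5p, adjusted p = 0.412). At 1 m the members were the lowest of the list, and the other 7 lay between -0.09 (miR-16-5p) and 0.66 (miR-92a-1-5p). In the pooled comparison 1 of 9 was called, beside 4.51% of all 244 miRNAs (11 in number). It was miR-92a-1-5p, which was higher after TBI (log2 fold change 0.51, SE 0.15, adjusted p = 0.0353 by edgeR's quasi-likelihood test). This miRNA belongs to the miR-17-92 cluster, which dividing cells of many types express. miR-363-5p, also on the list, averaged 0.0076 CPM.

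Levels of other cell types' markers at the intervals with the largest differences are given beside the members, and their part in the result was not tested. At 1 m the other 8 red cell miRNAs listed summed to between 1303 and 1727 CPM in sham rats and between 857 and 1674 CPM in TBI rats. These sums were mostly miR-16-5p, which many cell types express (1348 CPM in sham rat X783 and 529 CPM in TBI rat X769). They are thus not a gauge of red cells alone. The 5 miRNAs of leukocytes and microglia summed to 1555 to 1741 CPM in sham rats and 2609 to 3332 CPM in TBI rats. Of these, miR-146a-5p was called (log2 fold change 1.41, adjusted p = 0.00131 by edgeR's quasi-likelihood test). The 3 miRNAs of the vessel wall and platelets summed to 1027 to 1671 CPM in sham and 697 to 1413 CPM in TBI rats, with miR-126a-5p at a log2 fold change of -0.68 (SE 0.28, adjusted p = 0.238). The lowest level of miR-126a-5p at 1 m, 217 CPM, was in TBI rat X769, which also had the lowest miR-16-5p of the interval (529 CPM) and the lowest miR-144-5p. Without rat X769 the changes of the members at 1 m were -1.20 and -1.36. The 8 neuronal miRNAs summed to 218999 to 282607 CPM in sham and 150541 to 231921 CPM in TBI rats at 1 m. miR-9a-5p, with a mean of 195384 CPM over the 56 libraries, held most of such sums. Its log2 fold change at 1 m was -0.29 (adjusted p = 0.407 by edgeR's quasi-likelihood test). Over the 8 the changes ran from -0.48 (miR-218a-5p) to 0.97 (miR-129-5p), with a median of 0.14, and 0 were called. The sums are thus not a gauge of all neuronal miRNAs. Of the 2 oligodendrocyte miRNAs, miR-219a-5p had a log2 fold change of -0.96 (SE 0.26, adjusted p = 0.144, rank 4 of 240) and miR-338-5p of 0.22 (adjusted p = 0.628) by edgeR's quasi-likelihood test. The oligodendrocyte sums overlapped, at 1641 to 2855 CPM in sham and 1928 to 2483 CPM in TBI rats, as did those of the liver list (846 to 1107 against 566 to 1196) and of the choroid plexus list (1383 to 4441 against 1515 to 4427).

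At 2 m the leukocyte and microglia sums were 1512 to 1674 CPM in sham and 1994 to 2814 CPM in TBI rats. The red cell list without the members overlapped there, at 1577 to 2056 against 1346 to 2112 CPM. At 6 m the red cell list without the members summed to 1467 to 2043 CPM in sham and 1612 to 2199 CPM in TBI rats. The leukocyte and microglia sums at 6 m were 1754 to 2067 CPM in sham and 1879 to 2489 CPM in TBI rats, and the neuronal sums 245995 to 273285 and 250285 to 261630 CPM.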

How the data were processed

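The authors extracted total RNA from hippocampus with Ribopure, made libraries with the NEBNext small RNA kit with size selection, sequenced them on a NextSeq550, and used miRDeep2 to trim adapters and count reads against miRBase. bcl2fastq 2.20.0.422 is named in the submitters' processing notes, and a genome build is not given in the sources used here. The deposited values are raw counts for each mature miRNA, without normalization. All 56 columns matched a sample, and 0 were left out.

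Each interval was fitted on its own 8 libraries in edgeR 4.0.16 (R 4.3.3): filterByExpr, TMM scaling, the quasi-likelihood test of TBI against sham, and Benjamini-Hochberg adjustment over all miRNAs tested, with 0.05 as the threshold. The pooled, interaction and sham fits used 56, 56 and 28 libraries. CPM are counts divided by the total scaled with TMM over all 56 libraries. Exact permutation tests were two-sided on mean log2 CPM (prior count 2). Correlations used deviations from group means with 100000 resamples within groups. Ratios used raw counts with 0.5 added to each. The SE of a log2 fold change was taken from its size and the square root of F. Steps were tested on simulated data.

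Alternatives were the size factors, Wald test and likelihood ratio test of DESeq2 1.42.0, the likelihood ratio test of edgeR, total count scaling, TMM without the red cell list, a filter of 10 counts in each library, no filter, a joint fit of 56 libraries, other prior counts (0.5) or 1 added in ratios, and leaving out rats, intervals or rat X747. The ratios to miR-486 and a block on the S number at 1 y were added after the data were seen. The members and the marker lists were chosen with earlier results of these data known. Named miRNAs were both members, the 5 with the highest rho to each, and those on the lists. Sequences and positions come from RefSeq on GRCr8 (both members matched). miR-144-3p and miR-486-5p were not analysed here. Nothing in the labels says whether rats of a group came from separate litters. The p-values weigh differences against the spread among these libraries, which holds rats and library preparations alike. Intervals and floors cover counting error only.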

Additional observations from a re-analysis of the deposited data

Results flagged for a closer look

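Dixon's test was run in each of the 14 groups of 4 rats for the CPM of miR-451-5p, the CPM of miR-144-5p and their log2 ratio, 42 tests in all. The levels were thus not on the log2 scale of the other tests, and the flag of rat tube59 depends on this choice. A rat stood far from the others in 3 of them, where chance gives about 1 in 20, or 2.1 of 42, and 2 of the 3 were in the sham group at 24 h. In the sham group at 24 h, rat X599 had 179 CPM of miR-451-5p against 62.7 to 67.3 in the other sham rats. In the TBI group at 6 m, rat tube59 had 243 CPM of miR-451-5p against 90.1 to 109. In the sham group at 24 h, rat X594 had 5.38 CPM of miR-144-5p against 12.2 to 12.9. The high miR-451-5p of rat X599 was not matched by miR-144-5p (12.2 CPM), so that its 14.7 reads of miR-451-5p for each read of miR-144-5p were the most at 24 h. In rat tube59 both members were the highest of the group.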

How the results depend on the processing

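Among the recomputed values, 366 changed neither their side of the threshold nor, where they have one, their direction. Values without an adjusted p would be counted with these. A further 11 passed a threshold that the reported value had missed. The remaining 45 changed sign, each of them from a reported value between -0.26 and 0.24. The cause of these changes was not tested. For miR-144-5p at 1 m the log2 fold change was -1.53 in 3 other tests (likelihood ratio in edgeR, Wald and likelihood ratio in DESeq2) and -1.55 in the joint fit, each past the threshold. At 3 m its change of 0.02 became -0.022 with DESeq2 size factors, -0.030 with TMM without the red cell list, -0.0096 with no filter, -0.020 with at least 10 counts, -0.018 in both tests of DESeq2 and -0.024 in the joint fit. Without the interval of 1 m the pooled changes were 0.052 (miR-451-5p) and 0.14 (miR-144-5p). For the interaction, miR-144-5p had an adjusted p of 0.0268 by edgeR's and 0.0273 by DESeq2's likelihood ratio test. The other way, the adjusted p of the interaction test rose to as much as 0.593 among its 14 alternatives. The adjusted p of interval in sham rats for miR-451-5p was 0.0494 with total count scaling. Pearson's r in TBI rats passed the threshold without rat X747 (0.733), without removing group means (0.434) and without the 2 m rats (0.766). The log2 ratio at 2 w was 0.00055 with 1 added to each count.

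Leaving out each rat in turn moved the log2 fold change of miR-451-5p between -0.19 and 0.46 (24 h), -0.21 and 0.28 (2 w), -1.54 and -0.85 (1 m), -0.068 and 0.44 (3 m), and -0.19 and 0.53 (1 y). That of miR-144-5p moved between -0.11 and 0.42 (24 h), -0.30 and 0.079 (2 w), -0.18 and 0.20 (3 m), and -0.27 and 0.29 (1 y). The difference in log2 ratio moved between -0.40 and 0.13 (24 h), -0.18 and 0.19 (2 w), -0.51 and 0.019 (2 m), -0.072 and 0.31 (3 m), and -0.27 and 0.20 (1 y). The filter of at least 10 counts in every library left no value for the members where rat X747 was included, by its own construction. The number of miRNAs called at 24 h lay between 2 and 8 (4 as reported), at 2 w between 0 and 8 (0), at 1 m between 1 and 37 (1) and at 2 m between 0 and 2 (0). It lay between 0 and 1 at 3 m and 1 y (0) and was 0 at 6 m throughout. The ranges were 3 to 13 pooled (11), 1 to 12 for the interaction (7) and 12 to 95 for interval in sham rats (65). No paired analysis was possible because the labels give no replicate numbers. At 1 y each S number in the titles belongs to 1 sham and 1 TBI library, but what it marks is not stated. With the S number as a block, added after the data were seen, the changes at 1 y were -0.034 (miR-451-5p) and -0.030 (miR-144-5p) and 0 miRNAs were called, as without it. Correlations of deviations between libraries with the same number ran from -0.17 to 0.33, and 2 of 8 libraries correlated best with their own number. Because the meaning of the number is not given, neither the block nor these correlations can test a pairing or a run. At the other 6 intervals 0 numbers are shared by sham and TBI libraries, and each number belongs to 2 libraries of the same treatment. The layout of the numbers at 1 y thus differed from that of the other intervals. With 4 rats a group, the spread between rats was wide, and depth limited the values most in rat X747. In the other libraries miR-144-5p had as few as 17 reads. Its counting error there gave an SD of 0.20 beside 0.60 within groups.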
